A study of Rattus norvegicus with 14 samples.

Results

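Control thyroid cells carrying an empty vector were compared with and without pioglitazone. The comparison uses 6 of the 14 samples of the series, the RNA-seq libraries of EV cells, which were chosen by their labels alone. EV cells are PCCL3 cells, a differentiated rat thyroid follicular line that depends on thyrotropin, stably transfected with the empty expression vector. EV cells with pioglitazone received 1 µM of the drug for 16 hours and EV cells without pioglitazone received DMSO vehicle, with 3 libraries per group, 1 from each of 3 independent experiments. Both groups were kept in the same medium with thyrotropin, insulin, hydrocortisone and fetal bovine serum, so every value describes cells under hormone stimulation. The other RNA-seq libraries are 6 from PPFP cells, the same line stably expressing the human PAX8-PPARG fusion protein with a Myc tag, treated in the same way. They are used here only to show where EV cells differ. There is 1 stable line of each kind, so an effect of the fusion protein and a difference between transfectants cannot be told apart.

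Pioglitazone is a thiazolidinedione, a synthetic ligand of the nuclear receptor PPARG. PPARG pairs with a retinoid X receptor (RXR) on DNA, and agonist binding exchanges corepressors for coactivators, which raises transcription of genes for lipid uptake, storage and oxidation, most of all in adipocytes. Normal thyroid follicular cells make little PPARG, and their identity rests on the transcription factors PAX8, NKX2-1, FOXE1 and HHEX, which drive the genes of thyroid hormone synthesis. The question asked of EV cells is what the drug does to a thyroid cell that does not carry the fusion protein.

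Counts on genes summed to 27711659 to 35240176 per EV library, of which the 10 genes with the most counts took 4.96% to 5.53%. Of 16816 genes in the table, 4028 had no count in any EV library and 9550 reached a mean of at least 1 CPM. This unit is the count scaled for library size and for TMM factors taken over all 12 RNA-seq libraries. CPM is not corrected for transcript length, so levels are compared between libraries and not between genes. A gene with at most 3 counts in every library of a group is said to be at the floor. Libraries with the same replicate number were taken as 1 experiment. Intervals are 95% intervals from the fit.

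EV cells carried the expression profile of thyroid follicular cells. Tg, which encodes the thyroglobulin scaffold of thyroid hormone, stood at 9944, 9852 and 6647 CPM without pioglitazone in experiments 1 to 3 and at 10610, 8345 and 7376 CPM with it. The lowest value of both groups came from experiment 3, and the groups overlapped. All 4 thyroid transcription factors were well above the floor in every library, with a summed level of 2410 to 2520 CPM without and 2380 to 2460 CPM with the drug. Of the 18 genes listed for thyroid hormone synthesis and iodide handling, 14 passed the filter on low counts, among them Slc5a5 (the sodium-iodide symporter), Tshr (the thyrotropin receptor) and Dio1 (type 1 deiodinase). The 4 that did not pass were Slc26a4 (pendrin), Dio2, Slc16a10 and Kcnq1, with group means between 0 and 0.169 CPM. Among the 10 genes with the highest mean CPM were Eef1a1, Tg, Fth1, Eef2, Gapdh, Nedd4, Rps2, Actg1 and Ldha. Several of them have near-identical copies in the genome whose reads may not be told apart.

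Markers of other cell types were scarce. Among 7 C cell markers none passed the filter, 6 were at the floor and the summed level was at most 0.167 CPM. Among 5 endothelial markers the sum was at most 1 CPM. Among 8 immune markers the sum was 5.48 to 7.13 CPM, nearly all of it Cd14, and Itgam and Lyz2 had no count. Among 8 fibroblast markers the sum was 22.4 to 24.2 CPM, nearly all of it Pdgfra, while Col1a2, Col3a1, Dcn, Lum and Pdgfrb had no count. Among 9 adipocyte markers the sum was 3.01 to 5.66 CPM, from Adipoq and Slc2a4, with 5 at the floor. Of 14 epithelial genes in the table, Tjp1, F11r, Ocln and Cdh1 were detected in all libraries, while Krt18, Krt19, Cldn3, Cldn4 and Cldn7 had group means of 0 to 0.0975 CPM.

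The receptor of the drug was scarce. Pparg had 53, 54 and 36 counts without pioglitazone, or 1.77, 1.81 and 1.23 CPM, and 56, 88 and 38 counts with it, or 1.51, 2.81 and 1.36 CPM. The groups overlapped, and the highest value came from experiment 2 with the drug (log2 fold change 0.22, interval -0.23 to 0.67). In PPFP cells, where reads of the human transgene can fall on rat Pparg, the same row held 46.8 to 61.2 CPM, which matches the labels of the lines. Ppard, the broadly expressed family member, stood at 80.5 to 87.3 CPM over the 6 EV libraries, and Ppara, which drives fatty acid oxidation in liver, stood at 4.66 to 6.96 CPM. Of the partners, Rxra had 17.4 to 21.99 CPM and Rxrb had 49.3 to 69.8 CPM, while Rxrg reached at most 0.171 CPM and was not tested. None of the 5 tested receptor genes had an unadjusted p under 0.05 with pioglitazone, where 5.96% of all genes did, and neither did any of the 11 measured coregulators of PPAR, such as the corepressor Ncor1 and the coactivators Ppargc1a, Ncoa1 and Med1. Thiazolidinediones also bind mitochondrial proteins outside the PPAR family. Of these, Mpc1 and Mpc2 (the mitochondrial pyruvate carrier), Cisd1 (mitoNEET), Cisd2, Cisd3 and Acsl4 were expressed, none with an unadjusted p under 0.05, and Maob had no count. With so few genes, counts of 0 are close to the share over all genes.

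**Figure D1:**
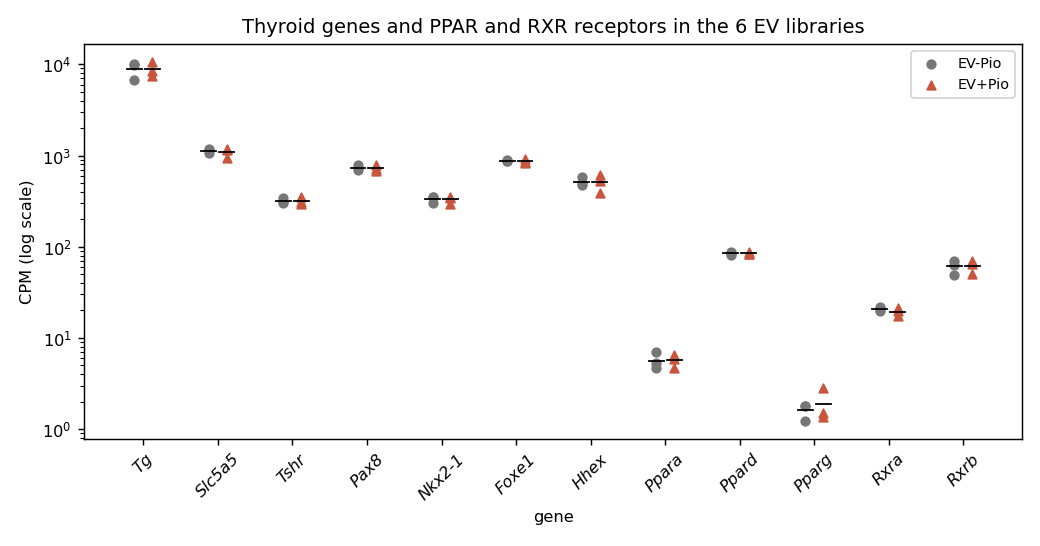
CPM on a log scale (vertical axis) of 7 thyroid genes and 5 PPAR and RXR genes (horizontal axis) in the 6 EV libraries, with grey circles for EV cells without and red triangles for EV cells with pioglitazone and a bar at each group mean (n = 3). Points of both groups overlap for every gene shown, and Pparg lies at 1.23 to 2.81 CPM; heights are not corrected for transcript length and are not to be compared between genes.

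Pioglitazone changed the expression of 1 gene in EV cells. Of 10223 genes tested with the experiment as a block, 1 (0.00978%) passed an adjusted p of 0.05 (edgeR quasi-likelihood test, Benjamini-Hochberg), Abca1, and none of them also exceeded 2-fold (0%). At an unadjusted p under 0.05 there were 609 genes (5.96%), 373 lower (3.65%) and 236 higher (2.31%). With DESeq2 8 genes were called and with all 12 libraries in 1 fit 14 were called, and none without the block. Each fit with 1 experiment left out has 1 residual degree of freedom. The count was 1 without experiment 1, 227 without experiment 2 and 12 without experiment 3. Of the 227, 1 was above 2-fold. Here and below, a higher share of cells expressing a gene and more RNA per cell cannot be told apart.

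The intervals bound how large an effect could be. The 95% interval of the fold change lay within 2-fold in either direction for 9957 genes (97.4%) and within 1.5-fold for 9362 genes (91.6%). The median absolute log2 fold change was 0.04 in EV cells and 0.15 in PPFP cells, and the median standard error in EV cells was 0.0454. Only 2 genes had a fitted change above 2-fold at any p, neither with a mean of 1 CPM or more, and above that level the largest absolute log2 fold change was 0.82, that of Creb5.

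**Figure D2:**
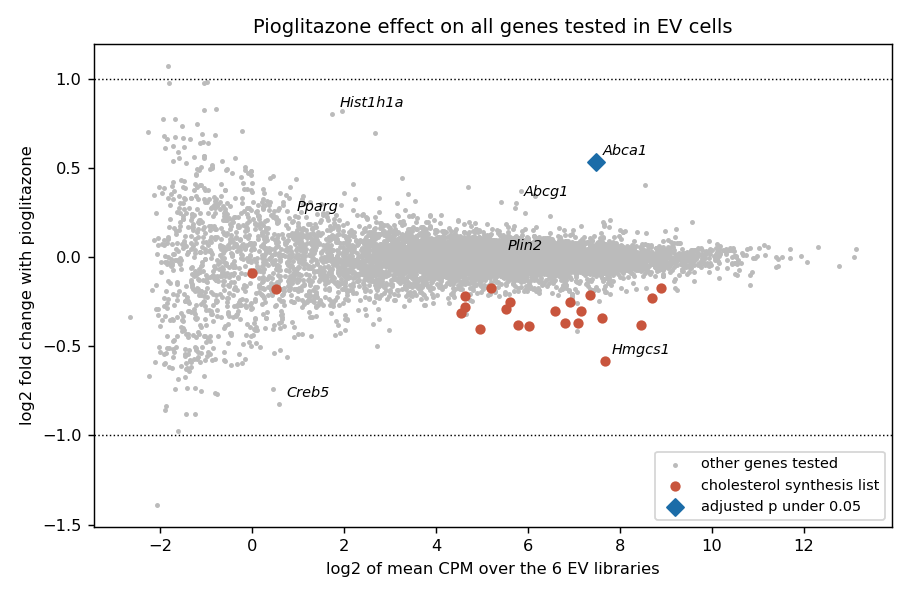
Log2 fold change with pioglitazone (vertical axis) against log2 of the mean CPM over the 6 EV libraries (horizontal axis) for the 10223 genes tested, with the 22 cholesterol synthesis genes in red, the 1 gene with an adjusted p under 0.05 as a blue diamond and dotted lines at a 2-fold change. Abca1 stands above the other genes of its level, and the cholesterol synthesis genes all lie below 0.

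Abca1 encodes the membrane transporter that hands cellular cholesterol to apolipoprotein A-I, and it is a textbook target of the oxysterol receptors LXR, one of which (Nr1h3) is itself known as a PPARG target in macrophages. Its level was 160.9, 190.2 and 83.8 CPM in EV cells without pioglitazone and 249.3, 267.8 and 116.5 CPM with it. It was higher with the drug in each of the 3 experiments, but experiment 3 ran lower in both groups, so that the groups overlap unless libraries are paired. The log2 fold change was 0.53 ± 0.0394 (SE, n = 3 per group, 1.45-fold), with an interval of 0.44 to 0.62 and an adjusted p of 0.00461 in edgeR's test. Over the 11 alternative settings the log2 fold change was 0.48 to 0.56, the adjusted p ranged from 2.52e-28 to 1, and the gene was called in 9. Here and for Abcg1, Hmgcs1 and Msmo1 below, the smallest adjusted p came from the fit without experiment 2, on 1 residual degree of freedom. It was not called in either fit without the block, where the adjusted p was 1. In PPFP cells the log2 fold change of Abca1 was -0.08, and the difference between the lines was -0.61 (interval -0.76 to -0.47, adjusted p = 1.34e-05 for the interaction in edgeR).

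The 250 bases upstream of the Abca1 start, from RefSeq on the rat assembly GRCr8 (chromosome 5, 72596474 to 72596723, minus strand), are shown because Abca1 was the only gene called. The capitals mark a match, starting 70 bases before the start site, on the opposite strand to GGTNA and CGGTCA separated by 4 bases, a direct repeat of the kind LXR and RXR bind (both strands searched). Abca1: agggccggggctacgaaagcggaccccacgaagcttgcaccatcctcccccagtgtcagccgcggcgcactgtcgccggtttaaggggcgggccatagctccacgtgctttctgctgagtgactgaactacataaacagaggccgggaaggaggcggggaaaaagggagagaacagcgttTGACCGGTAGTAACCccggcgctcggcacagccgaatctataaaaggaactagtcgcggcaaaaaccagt

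The letters searched follow the element known from Abca1 itself, so the match is a description and not independent of the gene. The same letters occurred in 10 of 27457 rat promoters of this length (0.0364%). A perfect direct repeat of the PPAR type, 2 copies of AGGTCA separated by 1 base on either strand, occurred in 15 of the 27457 (0.0546%) and in none of the 22 promoters matched among the shared PPAR target genes, which says only that these exact letters are not in these windows.

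Abcg1, which exports cholesterol to high-density lipoprotein, was also higher without passing the test. It stood at 54.8, 51.4 and 38.3 CPM without and 62.9, 66.0 and 49.5 CPM with pioglitazone, higher in each experiment and overlapping between groups (log2 fold change 0.30, interval 0.20 to 0.41, adjusted p = 0.177 in edgeR, 5.41e-06 to 1 over the alternatives). In PPFP cells its log2 fold change was 1.06. A list of 13 LXR receptors and targets was put together after these values were seen and is only described. Because Abca1 and Abcg1 prompted the list, its counts are not set against other genes. Of its 10 tested genes 8 had a higher mean, and Abcg8 and Nr1h3 were lower in all 3 experiments. Beside Abca1 and Abcg1, 1 had an unadjusted p under 0.05, Mylip, a ubiquitin ligase induced by LXR (log2 fold change 0.13). The receptors themselves gave log2 fold changes of 0.03 for Nr1h2 and -0.08 for Nr1h3, and the latter stood at 1.87 to 3.11 CPM in EV cells.

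Genes of cholesterol synthesis had lower means with pioglitazone. Of 24 genes listed, which run from acetoacetyl-CoA to cholesterol and include the sensors of cell sterol, 22 were in the table and all 22 were tested. All 22 had a lower mean, against 50.7% of all genes tested, and 20 had an unadjusted p under 0.05 in that direction, against 3.65% of all genes. None had an adjusted p under 0.05. This list, like the others, was chosen with earlier results of these data known, so its counts are a description and not independent support. The list median was a log2 fold change of -0.30, against -0.001 over all genes tested. The 2 genes without an unadjusted p under 0.05 were also the 2 not lower in all 3 experiments. Lower means in 3 of 3 experiments were found for 14.6% of all genes. Without the block none of the 22 had an unadjusted p under 0.05, by the quasi-likelihood or the exact test, while 8 passed the adjusted threshold in the fit of all 12 libraries and 5 with DESeq2. Each fit with 1 experiment left out has 1 residual degree of freedom. The adjusted threshold was passed by 0 without experiment 1, 20 without experiment 2 and 8 without experiment 3.

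Hmgcs1, which makes the HMG-CoA that enters the pathway, had the largest difference of the list. It stood at 248.4, 159.6 and 312.5 CPM without pioglitazone and at 162.6, 89.1 and 250.4 CPM with it. Each drug library lay below its own vehicle library, yet the vehicle value of experiment 2 was under 2 of the drug values. The log2 fold change was -0.58 (interval -0.76 to -0.40, 33.3% lower), with an adjusted p of 0.142 in edgeR, which ranged from 1.18e-22 to 1 over the alternatives.

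Msmo1, a methyl sterol oxidase late in the pathway, came closest to the threshold after Abca1. Its values were 158.6, 126.4 and 176.9 CPM without and 116.3, 95.7 and 147.3 CPM with the drug, lower in every experiment with overlapping groups (log2 fold change -0.37, adjusted p = 0.0595 in edgeR, 9.73e-16 to 1 over the alternatives). Mvd, the mevalonate diphosphate decarboxylase, had 49.0, 28.9 and 73.0 CPM without and 39.3, 23.2 and 61.5 CPM with it, again lower in each pair (log2 fold change -0.29). Fdps (farnesyl diphosphate synthase) and Fdft1 (squalene synthase) had log2 fold changes of -0.34 and -0.38. Sqle, Insig1 and Cyp51 gave -0.17, -0.23 and -0.38.

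**Figure D3:**
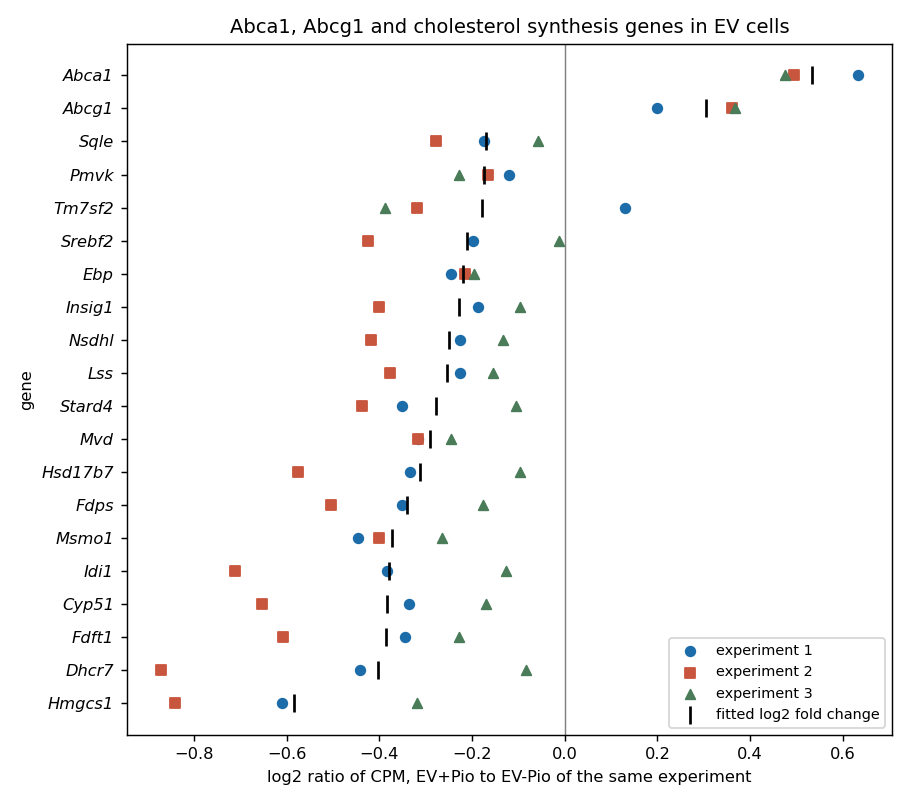
Log2 ratio of CPM with to without pioglitazone within each experiment (horizontal axis; circle, square and triangle for experiments 1, 2 and 3) for Abca1, Abcg1 and 18 of the 22 cholesterol synthesis genes (vertical axis), with a black tick at the fitted log2 fold change. Abca1 and Abcg1 lie right of 0 in all 3 experiments and 17 of the 18 synthesis genes shown lie left of 0 in all 3, furthest in experiment 2 for most.

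Most of the promoters found for these genes held the same motif. Of the 22 tested genes, 14 had a promoter in the RefSeq table, and 12 of the 14 (85.7%) held CCAAT on either strand within 250 bases of the start, the box bound by NF-Y, a factor that works with SREBP2, the main activator of sterol synthesis genes. The share was 36.2% of the 7648 promoters matched to genes tested and 34.3% of all 27457. Among cell cycle genes it was 22 of 28 (78.6%), so the box is not particular to sterol genes. A sterol regulatory element spelled TCACNCCAC, on either strand, was in none of the 14 and in 0.976% of all promoters. The 3 synthesis genes with the smallest p are shown with the box in capitals (GRCr8, 5′ to 3′ on the gene's strand). They lie on chromosome 16 from 29746863 to 29747112 (plus strand, Msmo1), chromosome 19 from 67414975 to 67415224 (minus strand, Mvd) and chromosome 2 from 53382054 to 53382303 (plus strand, Hmgcs1).
Msmo1: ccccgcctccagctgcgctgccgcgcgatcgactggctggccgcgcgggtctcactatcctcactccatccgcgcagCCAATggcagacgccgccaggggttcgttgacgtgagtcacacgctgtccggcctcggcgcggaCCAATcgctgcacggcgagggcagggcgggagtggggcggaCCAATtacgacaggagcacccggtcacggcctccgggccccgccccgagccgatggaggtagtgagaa
Mvd: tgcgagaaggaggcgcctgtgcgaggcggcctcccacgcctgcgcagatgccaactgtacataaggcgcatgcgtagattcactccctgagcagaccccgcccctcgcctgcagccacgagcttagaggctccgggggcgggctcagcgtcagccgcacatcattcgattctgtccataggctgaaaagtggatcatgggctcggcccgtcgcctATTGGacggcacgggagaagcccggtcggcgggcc
Hmgcs1: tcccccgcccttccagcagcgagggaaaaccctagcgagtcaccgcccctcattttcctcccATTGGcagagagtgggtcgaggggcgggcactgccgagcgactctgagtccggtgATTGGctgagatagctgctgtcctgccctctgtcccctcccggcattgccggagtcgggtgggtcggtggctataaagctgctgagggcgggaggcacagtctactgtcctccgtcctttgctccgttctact
Msmo1 has 3 boxes, starting 173, 109 and 68 bases before the start site, Hmgcs1 has 2 at 188 and 133 bases, and Mvd has 1 at 35 bases.

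The cholesterol genes also differed between experiments, and cell cycle genes also had lower means. The list median of log2 ratios was -0.26 in experiment 1, -0.43 in experiment 2 and -0.16 in experiment 3, with 21, 21 and 22 genes lower. Among 38 cell cycle genes tested, 37 had a lower mean, against 50.7% of all genes, and 20 had an unadjusted p under 0.05 in that direction, against 3.65%, a count that was 9 with DESeq2 and 0 in both fits without the block. The list median was -0.15, or -0.047 without experiment 2, with none with an adjusted p under 0.05. Their median was -0.01 in experiment 1, -0.40 in experiment 2 and -0.06 in experiment 3. The smallest p values of the list were those of Mcm7, a helicase subunit (log2 fold change -0.13), and of Cdk1, the mitotic kinase (-0.22), neither with an adjusted p under 0.05. In experiment 1 the cholesterol median was -0.26 while that of the cell cycle was near 0. Whether the lower cell cycle values have a part in the cholesterol result was not tested.

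**Figure D4:**
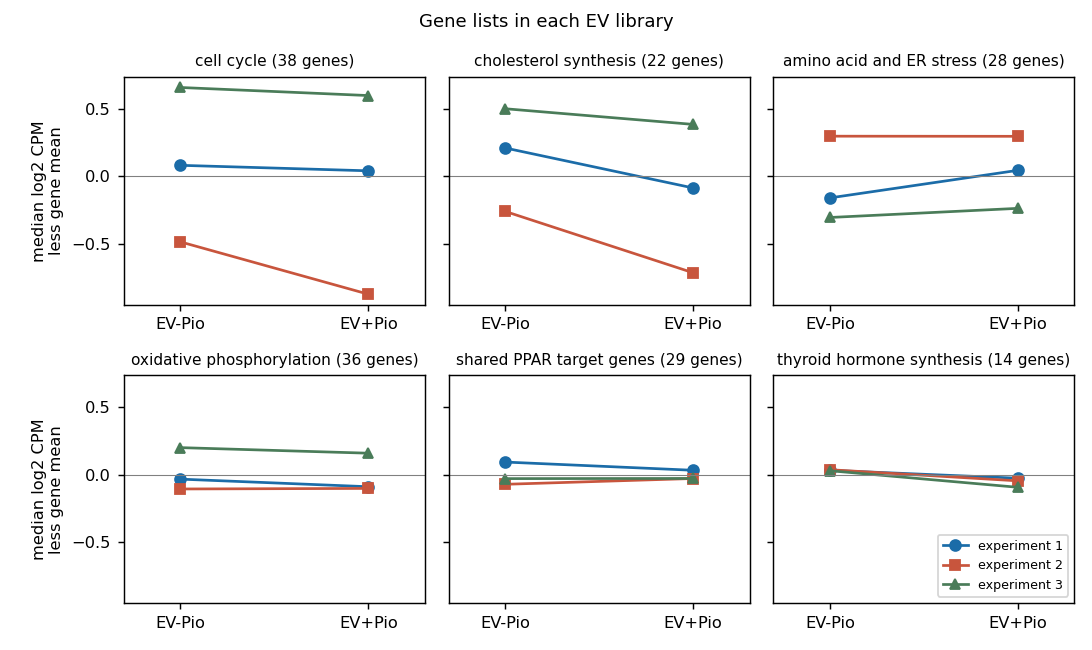
Median over the genes of a list of log2 CPM less the gene's mean over the 6 EV libraries (vertical axis), without and with pioglitazone (horizontal axis), with 1 line per experiment and 1 panel for each of 6 lists. The cholesterol line slopes down in each experiment, the cell cycle line mainly in experiment 2, and the range over experiments is wider than any step with the drug in both of these panels.

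Differences between the 3 experiments were larger than those with the drug. Of the 10223 genes, 6628 (64.8%) differed between experiments at an adjusted p under 0.05, 559 (5.47%) by more than 2-fold between some pair. The count was 4415 with DESeq2 and 3335 without experiment 3. Of the sum of squares of log2 CPM, the experiment took 80.9% on 2 degrees of freedom, pioglitazone 6.72% on 1 and the rest 12.4% on 2. Per degree of freedom, the share of pioglitazone was close to that of the rest. All 38 cell cycle genes and 20 of 22 cholesterol genes differed between experiments, with cell cycle medians of -0.69 in experiment 2 and 0.54 in experiment 3 relative to experiment 1. Txnip, a glucose-responsive inhibitor of thioredoxin, stood at 392.0, 60.5 and 513.5 CPM without and 372.9, 71.8 and 533.5 CPM with pioglitazone, so experiment 2 was low in both groups. Atf5, a transcription factor of the amino acid stress response, ran the other way, with 41.3, 120.0 and 27.3 CPM without and 57.1, 151.7 and 31.1 CPM with the drug. The tubulins Tuba1c and Tuba1b, near-identical copies whose reads may not be told apart, Mcm7, Fam129a, Adam19, Tubb6, Nefh and Slc25a10 completed the 10 genes that varied most firmly. All libraries of an experiment shared the same sequencing lanes, so culture and lane cannot be told apart.

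Targets of PPARG had a median difference near 0 in EV cells. Over 2 lists, adipocyte PPARG targets and targets shared among PPARs, 42 of 64 genes were tested, 22 with a higher and 20 with a lower mean, and the median log2 fold change was 0.00083. The interval lay within 1.5-fold for 39 of the 42, against 91.6% of all genes tested. A further 14 genes were at the floor in EV cells, including Fabp4 and Cd36, so a decrease, or a rise that stayed at the floor, was not detectable at this depth. Of the 42, 41 were also tested in PPFP cells, where 33 rose and 2 fell at an adjusted p under 0.05, where 26.8% of all genes rose and 24.8% fell (51.6% in all), and the median was 0.62. The response differed between the lines at an adjusted p under 0.05 for 34 of these 42 members, against 33.9% of all genes (2.58% also by more than 2-fold). It was more positive in PPFP cells for 31 members, against 17.1% of all genes, and more negative for 3, against 16.8%. Without the block 277 genes in all differed, and without experiment 3 there were 2332, against 3588.

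Plin2, which coats lipid droplets, is an example. It stood at 44.6, 40.2 and 41.1 CPM in EV cells without pioglitazone and at 42.9, 43.3 and 39.8 CPM with it. The groups overlapped, with a log2 fold change of 0.00037 (interval -0.10 to 0.11) in EV cells and 1.88 in PPFP cells. Gpd1, which makes the glycerol backbone of triglyceride, gave 0.04 in EV cells (interval -0.05 to 0.13) and 1.74 in PPFP cells. Acaa2, the last enzyme of mitochondrial fatty acid oxidation, gave 0.03 (interval -0.08 to 0.14) and 1.20.

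The 3 list members with an unadjusted p under 0.05 in EV cells were Abca1, Pdk4 and Angptl4, all higher, 3 of 42 against 2.31% of all genes higher and 5.96% in either direction. Pdk4, a kinase that shuts off pyruvate oxidation, had 10.98, 11.2 and 8.87 CPM without and 13.3, 16.2 and 9.40 CPM with the drug (log2 fold change 0.32, interval 0.11 to 0.52, adjusted p = 0.686 in edgeR). Angptl4, a secreted inhibitor of lipoprotein lipase, had 49.7, 30.2 and 34.8 CPM without and 52.7, 51.0 and 37.8 CPM with it (0.31, interval 0.06 to 0.57, adjusted p = 0.789 in edgeR). Both were higher in each experiment, most in experiment 2, with groups that overlapped. In PPFP cells their log2 fold changes were 1.79 and 2.53.

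**Figure D5:**
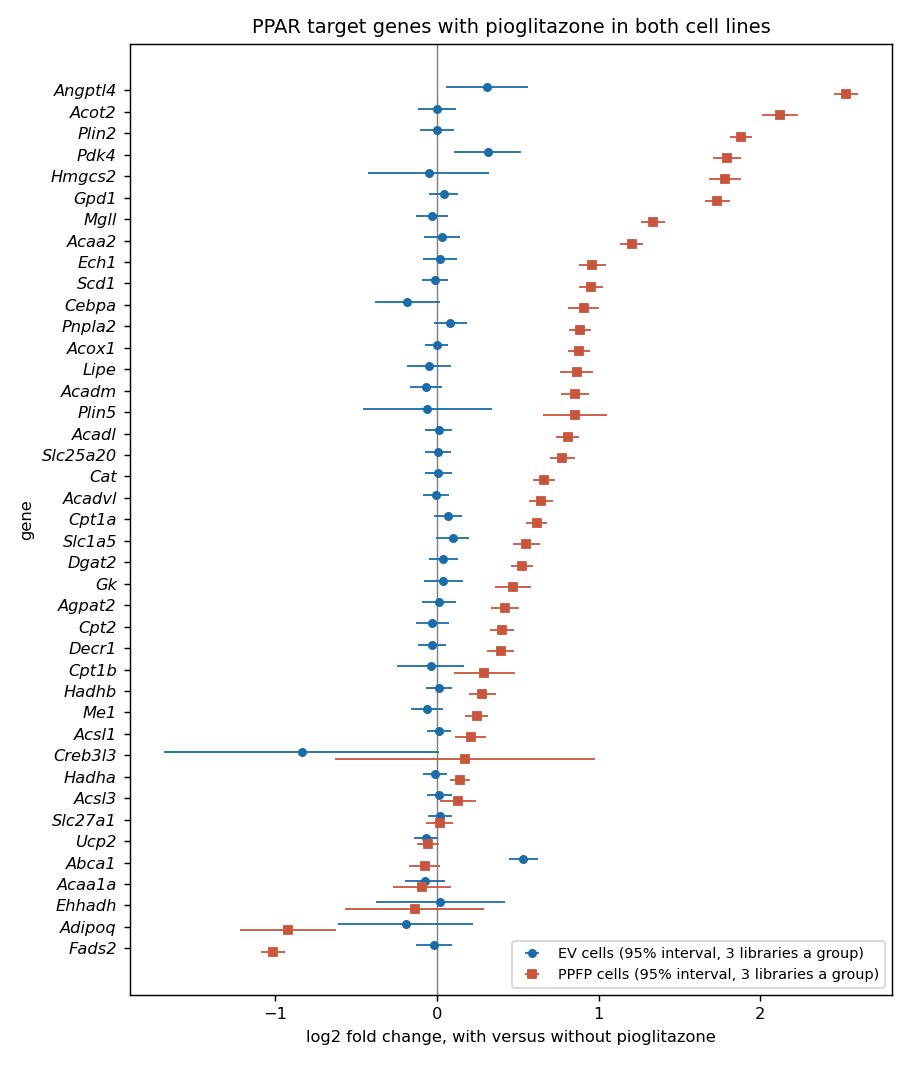
Log2 fold change with pioglitazone (horizontal axis) with its 95% interval for the 41 PPAR target genes tested in both lines (vertical axis), with blue circles for EV cells and red squares for PPFP cells, 3 libraries per group. The EV intervals of Abca1, Pdk4 and Angptl4 lie above 0 and that of Creb3l3 is wide, while most PPFP values lie to the right.

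The genes that responded most in PPFP cells were followed in EV cells. In PPFP cells 363 of 10179 genes (3.57%) passed the same threshold with more than a 2-fold change, 149 higher and 214 lower. Of the 149 higher, only 80 passed the filter on low counts in EV cells. There 43 (53.8%) had a higher mean, against 49.6% of the 9845 genes tested in both lines, and the median log2 fold change was 0.0032. At an unadjusted p under 0.05, 4 of the 80 were higher and 2 lower, against 233 and 359 of the 9845. The interval lay within 1.5-fold for 63 of the 80 (78.8%, against 93.8% of the 9845). Of the 214 lower, 192 passed it, where 134 (69.8%) had a lower mean, against 50.4% of genes tested in both lines, and the median was -0.06. At an unadjusted p under 0.05, 17 of these 192 were lower in EV cells, against 359 of the 9845, and the interval lay within 1.5-fold for 68.8%. None of either set had an adjusted p under 0.05 in EV cells. Across the 9845 genes tested in both lines, Pearson's r between the log2 fold changes was 0.101 and Spearman's rho 0.0997; the lines share no library but do share the experiments, and genes are not independent replicates.

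No thyroid gene tested passed the adjusted threshold with the drug. The interval lay within 1.5-fold for all 14 tested genes of hormone synthesis and all 4 transcription factors, against 91.6% of all genes tested, and the medians were -0.05 and -0.02. Of the 14 synthesis genes 12 had a lower mean, and all 4 transcription factors, against 50.7% of all genes, and without experiment 2 the medians were -0.021 and -0.0073. The 1 gene with an unadjusted p under 0.05, against 5.96% of all genes, was Ano1, an apical chloride channel, with a log2 fold change of -0.09. Slc5a5 stood at 1137, 1074 and 1176 CPM without and 1135, 948.9 and 1182 CPM with pioglitazone, and only the experiment 2 value with the drug was set apart (-0.06, interval -0.17 to 0.05). In PPFP cells 9 of the 13 synthesis genes tested in both lines fell and 3 rose at an adjusted p under 0.05, against 24.8% and 26.8% of all genes, Slc5a5 by -0.93 on the log2 scale, whereas Duox2, an oxidase that supplies hydrogen peroxide, rose by 1.02.

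In the remaining lists no member had an adjusted p under 0.05. The counts that follow stand against 2.31% of all genes higher and 3.65% lower at an unadjusted p under 0.05. Of 28 amino acid and ER stress genes, 8 were higher and 1 lower at an unadjusted p under 0.05, with a median of 0.06, and the list median was 0.18 in experiment 1, -0.02 in experiment 2 and 0.05 in experiment 3. Among them Trib3, a pseudokinase induced by this response, had a log2 fold change of 0.37, and Asns (asparagine synthetase), Slc3a2 (an amino acid transporter subunit) and Herpud1 gave 0.25, 0.16 and 0.14. Atf5 gave 0.34, higher in all 3 experiments (adjusted p = 0.177 in edgeR). Of 23 immediate early genes, 5 were higher and 1 lower at an unadjusted p under 0.05, including Egr1 (0.44, or 0.24 without experiment 1), Fos (0.20), Junb (0.16) and Ier2 (0.14). Without experiment 1 the median of the list turned from 0.05 to -0.0043. Of 22 glycolysis and hypoxia genes 6 were lower, such as Tpi1 and Pfkp at -0.10 each, and of 12 fatty acid synthesis genes 2 were lower, Elovl6 at -0.22 and Acly at -0.12. Of 28 interferon-stimulated genes 2 were higher and 1 lower. Of 36 oxidative phosphorylation genes, 32 had a lower mean, against 50.7% of all genes, and 18 were lower in all 3 experiments, against 14.6%, with a median of -0.03 and none with an unadjusted p under 0.05. None of 12 chaperones had an unadjusted p under 0.05.

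By the rule for size, the 5 largest differences in each direction included Abca1, Egr1 and Hmgcs1, given above, and 7 genes with few counts. Hist1h1a, a linker histone, had 2.65, 2.48 and 2.19 CPM without and 4.48, 5.08 and 3.23 CPM with pioglitazone. Here the groups did not overlap (log2 fold change 0.80, interval 0.50 to 1.11, adjusted p = 0.227 in edgeR). Creb5, a transcription factor, had 1.91, 2.54 and 1.34 CPM without and 1.19, 1.31 and 0.754 CPM with it, again without overlap (-0.82, interval -1.21 to -0.44, adjusted p = 0.461 in edgeR). C1ql4, Prr22 and Dnase1l3 were among the 5 lowest, at -0.74, -0.56 and -0.53, and RGD1564171 and Slmo1 were among the 5 highest, at 0.44 each, and none of the 5 had an adjusted p under 0.05.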

How the data were processed

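RNA from TruSeq libraries was sequenced as 50-nucleotide read pairs; the authors aligned reads to rn4 with TopHat2 2.0.11 and counted them per gene with HTSeq 0.6.1p1 in its strictest intersection mode, and the deposited table holds these raw counts by gene symbol, unnormalized and unpooled. The kit does not mark strand, so reads from overlapping genes on opposite strands cannot be told apart. Peak lists of the series were not used here. The gene lists, the comparison and the rule for named genes were chosen with earlier results of these data known.

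In R 4.3.3, edgeR 4.0.16 was run with its filterByExpr filter, TMM factors and the quasi-likelihood test (Benjamini-Hochberg) on the 6 EV libraries with the experiment number as a block. The interaction used all 12 libraries with experiment blocks within each line. Standard errors came from each gene's F value and fold change. Same-numbered libraries were taken to come from the same experiment, which the study does not state for the replicate numbers. Their deviations from the group means correlated at 0.585, 0.744 and 0.788. The biological coefficient of variation was 0.0372 with the block and 0.156 without. Methods were tested on simulated data. Named were genes with an adjusted p under 0.05, the 10 smallest p, the 5 largest differences each way with a mean of at least 1 CPM and an unadjusted p under 0.05 in 1 direction in all experiments, the 10 most abundant, the 10 most variable between experiments, the thyroid, receptor, thiazolidinedione-binding and PPAR target lists, and up to 4 of each other list. Some genes that this rule selects are not reported here. Alternatives were RLE factors, library size alone, no filter, a minimum of 10 counts, DESeq2 1.42.0, no block, the exact test, all 12 libraries in 1 fit and each experiment left out. Promoters are from RefSeq (GRCr8), matched by symbol in Python 3.11.15; no rn4 genome was used here.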

Additional observations from a re-analysis of the deposited data

Results flagged for a closer look

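The following differ between PPFP and EV cells by the interaction term of edgeR's quasi-likelihood test, each given as the log2 fold change in PPFP cells minus that in EV cells and each with an adjusted p under 0.05. The response differed for 3588 of 10575 genes (33.9%). The count was 277 without the replicate block. Of the sterol genes, Abca1 was lower by this measure at -0.61 and Abcg1 higher at 0.76, Hmgcs1 gave 0.44 and Fdps 0.30. Of the cholesterol synthesis list 10 of 22 genes differed, all with a more positive value in PPFP cells, against 17.1% of all genes. Within PPFP cells 8 of the 21 tested genes of this list fell and 1 rose at an adjusted p under 0.05, against 24.8% and 26.8% of all genes. Of the cell cycle list 32 of 38 differed, all more positive in PPFP cells, where 29 of 38 rose and 1 fell. Of the PPAR targets, Angptl4 gave 2.21, Plin2 1.88, Gpd1 1.69, Pdk4 1.47 and Acaa2 1.17. Among members that passed the filter on low counts within EV cells, 12 of 13 adipocyte PPARG targets and 22 of 29 shared PPAR targets differed. Of the thyroid genes, Slc5a5 gave -0.87 and Duox2 1.06, and 12 of the 14 synthesis genes tested in EV cells differed. The part of the fusion protein in these differences cannot be told apart from other differences between the 2 stable lines.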

How the results depend on the processing

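The count of genes with an adjusted p under 0.05 in EV cells was 1 with the replicate block, RLE factors, library size alone and a minimum of 10 counts, 3 with no filter, 8 with DESeq2, 14 with all 12 libraries in 1 fit, and 0 with no replicate block by either the quasi-likelihood or the exact test. With 1 experiment left out it was between 1 and 227, where both libraries of the experiment were removed because the block pairs them, and the count above 2-fold was between 0 and 1. The count at an unadjusted p under 0.05 was 154 with DESeq2, 16 with no replicate block, 9 by the exact test and between 417 and 1302 without 1 experiment (highest without experiment 2). Cholesterol genes lower at that level numbered 0 and cell cycle genes 0 in both fits without the block, and cell cycle genes numbered 9 with DESeq2. Genes that differed between experiments numbered 4415 with DESeq2 and between 3335 and 5886 without 1 experiment. Interaction genes numbered 2330 with DESeq2, 277 with no replicate block and between 2332 and 3054 without 1 experiment; above 2-fold they numbered 169 at a minimum of 10 counts and 97 with no replicate block, against 273. The median of the adipocyte PPARG targets was between 0.0044 and 0.036 without 1 experiment, against 0.013. Of the list medians, 9 of 17 took the other sign under at least 1 scaling or left-out experiment, all of them medians between -0.03 and 0.05, while the cholesterol, cell cycle, stress, glycolysis, oxidative phosphorylation, adipocyte PPARG target and both thyroid medians kept theirs under the 6 settings run. None of the 17 genes recomputed changed sign. The causes were not tested. There were 3 experiments per group, Pparg stood under 3 CPM, and depth limits what can be seen for genes near the floor.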
